A study of Homo sapiens with 6 samples.

Results

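The genes described here encode the kinases that drive a cell through mitosis and the B-type cyclins that switch the first of them on. They are CDK1, CCNB1, CCNB2, PLK1, PLK4, AURKA, AURKB, BUB1, TTK and NEK2. Each probe set of the array whose single annotated gene symbol is 1 of these 10 was taken, which gave 21 of the 49372 probe sets, and the 10 genes are 10 of the 18132 with a probe set of their own. No member lacked a probe set. Expression was measured on arrays in A549, an established human lung adenocarcinoma cell line grown as a single cell type. Knockdown cells (titled sh_LINC00525, 3 arrays) had the long noncoding RNA LINC00525 silenced, and control cells (titled sh_ctrl, 3 arrays) received a scrambled sequence. The titles say sh, while the treatment text speaks of small interfering RNA. In their genotype entries, 2 of the knockdown samples (replicates 2 and 3) carry the names LINC00526 and LINC00527, although all 3 titles name LINC00525. No time after silencing and no separate cultures are named, so the spread behind each p-value is that between these arrays and may be technical.

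Mitotic entry is set by CDK1 bound to cyclin B. Cyclin B accumulates in G2 and is destroyed through the anaphase-promoting complex (APC/C) when chromosomes are aligned, which lets the cell leave mitosis. PLK1 and Aurora kinases act around this core on centrosomes, spindle and cytokinesis, BUB1 and TTK hold the cell at the spindle checkpoint, PLK4 copies centrioles and NEK2 separates centrosomes. Transcripts of most of these genes peak in G2 and mitosis, and the p21 protein, encoded by CDKN1A, is known to lower many of them through the DREAM repressor complex. That complex binds promoters at a short element called CHR, often near CCAAT boxes bound by the activator NF-Y.

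Promoters of 3 members whose transcripts fell, and of BUB1, whose change did not pass the test, are shown as examples. The 3 were picked from the 4 genes that hold both CHR and CCAAT letters in the stretch shown. A link between such letters and the changes was not tested. Each line gives the 125 bases before the annotated start, from RefSeq, with TTTGAA or TTTAAA (the CHR letters, searched on both strands) and CCAAT (both strands) in capitals.
CCNB1 promoter, GRCh38.p14 chr5:69167025-69167149, plus strand: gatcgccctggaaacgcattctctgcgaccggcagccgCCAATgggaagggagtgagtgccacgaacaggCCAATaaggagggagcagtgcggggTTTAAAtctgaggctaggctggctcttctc
CCNB2 promoter, GRCh38.p14 chr15:59105021-59105145, plus strand: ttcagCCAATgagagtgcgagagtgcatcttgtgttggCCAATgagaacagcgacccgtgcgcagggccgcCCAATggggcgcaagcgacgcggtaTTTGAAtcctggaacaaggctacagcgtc
PLK1 promoter, GRCh38.p14 chr16:23678764-23678888, plus strand: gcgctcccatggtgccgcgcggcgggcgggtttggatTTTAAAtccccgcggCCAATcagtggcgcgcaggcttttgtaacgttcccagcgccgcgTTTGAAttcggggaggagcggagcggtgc
BUB1 promoter, GRCh38.p14 chr2:110678064-110678188, minus strand: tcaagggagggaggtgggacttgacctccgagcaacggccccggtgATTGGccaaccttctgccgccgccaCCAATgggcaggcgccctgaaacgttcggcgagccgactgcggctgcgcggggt

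CCNB1 has its CHR letters 30 bases before the start, and CCNB2 and PLK1 have TTTGAA 29 bases before it. CCAAT lies upstream of these matches in all 3, at 87 and 55 bases before the start in CCNB1 and at 73 in PLK1. PLK1 has a further match, TTTAAA, 88 bases before its start, which lies upstream of its CCAAT. BUB1 has CCAAT letters at 79 and 54 bases before its start and no TTTGAA or TTTAAA in the window. For CDK1, whose entries in the table are 2, the downstream start has TTTGAA at 69 and 13 bases before it. The 300-base promoter sequences (250 bases before to 50 after the start) held 12 entries for 8 of the 10 genes. AURKA and TTK had no entry among them and were not searched. The CHR letters were in 6 of the 12 entries, of 5 genes, against 24.0% of all 35116 entries. CCAAT was in 10 of the 12, of all 8 genes, against 34.6% of all entries. No match of 1 motif overlapped a match of the other. These are matches of letters and no binding was measured here.

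Across the 10 genes, 6 fell, 0 rose and 4 did not pass the test. Every one of the 10 was lower on each knockdown array than on each control array. A gene was called at a limma adjusted p under 0.05 over all 18132 genes, with the probe set of highest mean signal standing for each gene. Over all genes, 12.6% were called in either direction, 6.83% were called as fallen, and 17.9% had every knockdown array below every control array. The median log2 change of the 10 was -0.16, against -0.01 over all genes. Members and lists were chosen with results of these data known, so these counts describe the genes and do not test them as a group. All values below are log2 RMA signals. After RMA a log2 change counts against the bulk of genes on the arrays. In RNA from whole cultures, fewer cells in G2 and mitosis and less RNA per such cell cannot be told apart.

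**Figure D1:**
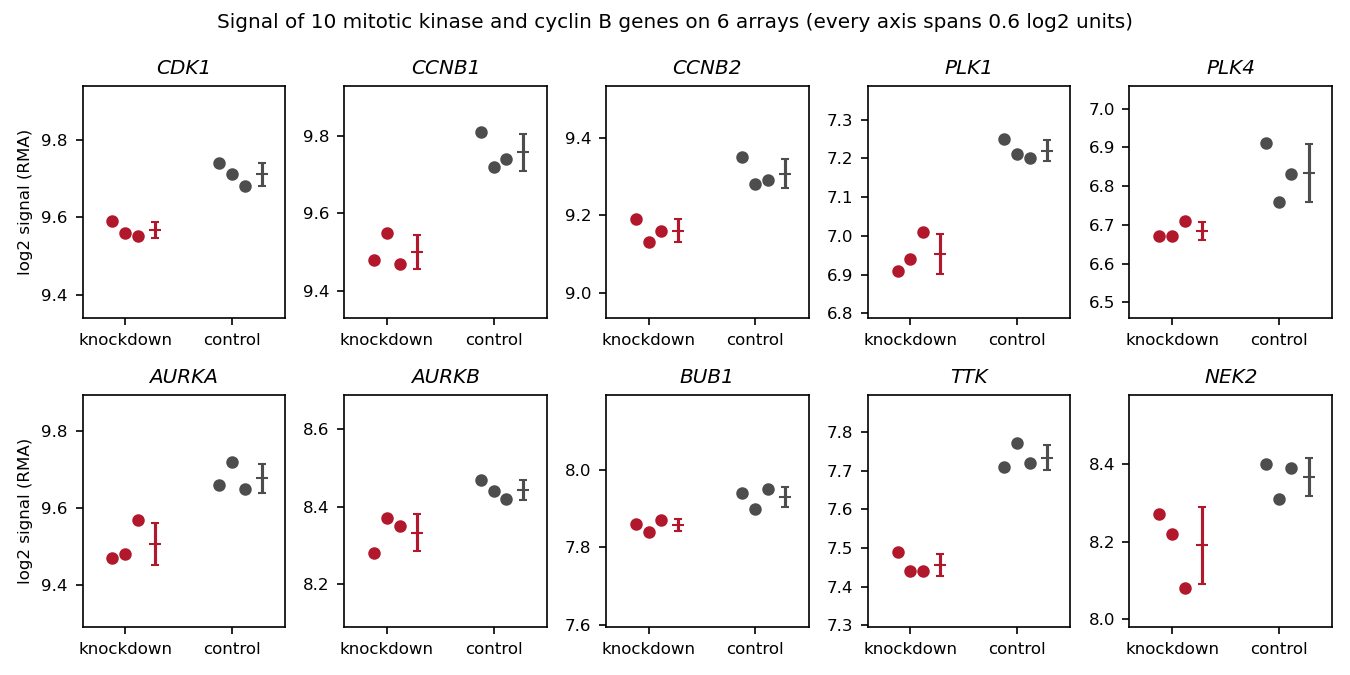
Log2 RMA signal (y axis) of each of the 10 genes on the 3 knockdown arrays (red, left) and the 3 control arrays (grey, right), replicates 1 to 3 from left to right. Dashes with bars are the mean ± SD of 3 arrays. In all 10 panels the red points lie below the grey ones, with the gap widest for TTK, PLK1 and CCNB1 and narrowest for BUB1 and NEK2.

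CDK1 and both B-type cyclins fell. CCNB1, cyclin B1, was at 9.48, 9.55 and 9.47 on knockdown arrays, against 9.81, 9.72 and 9.74 on control arrays. The highest knockdown array was 0.17 below the lowest control array. CCNB1 fell by 0.26 ± 0.043 on the log2 scale (SE; limma adjusted p = 0.00943), and its linear signal fell by 16.3%. CCNB2, the second B-type cyclin, was at 9.19, 9.13 and 9.16 on knockdown arrays, against 9.35, 9.28 and 9.29 on control arrays. Its groups did not overlap, and it fell by 0.15 ± 0.039 (SE; limma adjusted p = 0.0499), on the edge of the threshold. CDK1, the kinase itself, was at 9.59, 9.56 and 9.55 on knockdown arrays, against 9.74, 9.71 and 9.68 on control arrays. It fell by 0.14 ± 0.037 (SE; limma adjusted p = 0.0441). The calls of CDK1 and CCNB2 did not hold in any of the 6 fits that left out 1 array (limma adjusted p from 0.0733 to 0.130 for CDK1 and from 0.0744 to 0.145 for CCNB2), and with the replicate number as a block (adjusted p = 0.0831 and 0.0800).

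CDK1 has 2 probe sets besides this one, which carries the suffix _s_at and can match more than 1 transcript. The second was at 8.81, 8.78 and 8.79 on knockdown arrays, against 8.98, 8.93 and 8.99 on control arrays, and fell by 0.17 ± 0.041 (SE; limma adjusted p = 0.0357 over 49293 probe sets). The third was dim, at 4.23, 4.17 and 3.97 on knockdown arrays, against 4.39, 4.23 and 4.60 on control arrays, with overlapping groups and a log2 change of -0.28 ± 0.10 that did not pass (adjusted p = 0.126). Its control mean of 4.41 lay under 1 of the 17 Tag probe sets, platform controls with no target in human cells. All 3 CDK1 probe sets thus had negative changes, and the 95% intervals (-0.24 to -0.05, -0.27 to -0.08 and -0.52 to -0.05) overlap.

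Of the polo-like kinases, PLK1 fell at every probe set and PLK4 at 1 of 2. PLK1, which acts from mitotic entry to cytokinesis, was at 6.91, 6.94 and 7.01 on knockdown arrays, against 7.25, 7.21 and 7.20 on control arrays. It fell by 0.27 ± 0.042 (SE; limma adjusted p = 0.00681), and its linear signal fell by 16.9%. Its other probe sets fell as well. The one with the suffix _x_at, which can bind related transcripts, fell by 0.20 ± 0.042 (SE; limma adjusted p = 0.0243 over all probe sets). The third probe set was at 5.90, 5.96 and 6.18 on knockdown arrays, against 6.52, 6.40 and 6.43 on control arrays. It had the most negative change of the 21, and fell by 0.44 ± 0.075 (SE; limma adjusted p = 0.0111 over all probe sets). Of the 4 members with more than 1 probe set, PLK1 alone had all of them past the threshold.

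PLK4, the kinase that starts centriole duplication, was at 6.67, 6.67 and 6.71 on knockdown arrays, against 6.91, 6.76 and 6.83 on control arrays. The groups did not overlap, but the control arrays were more spread than the knockdown arrays, and the log2 change of -0.15 ± 0.047 did not pass (SE; limma adjusted p = 0.0819; 95% interval -0.26 to -0.04). Its dimmer probe set was at 5.26, 5.25 and 5.36 on knockdown arrays, against 5.48, 5.54 and 5.46 on control arrays, and fell by 0.20 ± 0.049 (SE; limma adjusted p = 0.0373 over all probe sets). As the mean of both its probe sets PLK4 passed (log2 change -0.18, limma adjusted p = 0.0165).

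Of the Aurora kinases, AURKA fell and AURKB did not pass. AURKA, which matures centrosomes and builds the spindle, was at 9.47, 9.48 and 9.57 on knockdown arrays, against 9.66, 9.72 and 9.65 on control arrays. It fell by 0.17 ± 0.044 (SE; limma adjusted p = 0.0435), a call that held without knockdown replicate 3 (adjusted p = 0.0393) and was lost without each of the other arrays (adjusted p up to 0.141) and with the replicate number as a block (adjusted p = 0.0908). Knockdown replicate 3 was the closest of its group to the controls. Another probe set, annotated to AURKA, its pseudogene AURKAP1 and RAB3GAP2 together, is not analysed here. AURKB, the kinase of the chromosomal passenger complex that corrects chromosome attachments, was at 8.28, 8.37 and 8.35 on knockdown arrays, against 8.47, 8.44 and 8.42 on control arrays. The gap between the groups was 0.05, and the log2 change of -0.11 ± 0.041 did not pass (SE; limma adjusted p = 0.129; 95% interval -0.20 to -0.02).

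The checkpoint kinases had the most and the least negative change of the 10 genes. TTK (MPS1), which starts spindle checkpoint signalling at kinetochores, was at 7.49, 7.44 and 7.44 on knockdown arrays, against 7.71, 7.77 and 7.72 on control arrays. It fell by 0.28 ± 0.038 (SE; limma adjusted p = 0.00429) and its linear signal fell by 17.4%, and only 2.02% of all genes had a more negative change. BUB1, which docks checkpoint proteins and marks centromeres, was at 7.86, 7.84 and 7.87 on knockdown arrays, against 7.94, 7.90 and 7.95 on control arrays. Its arrays were tightly grouped and did not overlap, but the log2 change of -0.07 ± 0.036 did not pass (SE; limma adjusted p = 0.248; 95% interval -0.16 to 0.01), and 27.3% of all genes had a more negative one. TTK and BUB1 each have 1 probe set, and that of TTK carries the suffix _s_at.

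NEK2, the kinase that splits the centrosome linker before mitosis, has 7 probe sets, and which of them is read decides its call. The brightest stood for the gene. It was at 8.27, 8.22 and 8.08 on knockdown arrays, against 8.40, 8.31 and 8.39 on control arrays, without overlap, and its log2 change of -0.18 ± 0.057 did not pass (SE; limma adjusted p = 0.0887). A nearly as bright probe set without the suffix _x_at was at 8.09, 8.11 and 8.14 on knockdown arrays, against 8.35, 8.26 and 8.26 on control arrays. Its change was the same size with less spread, and it fell by 0.18 ± 0.045 (SE; limma adjusted p = 0.0459 over all probe sets). Of the 7 NEK2 probe sets 3 fell and 4 did not pass, at log2 changes of -0.32 to -0.12. Knockdown replicate 3 stood below the rest of its group at 2 of these 7. It was at 7.01 at the probe set with the most negative change, against 7.34 and 7.33 on the other knockdown arrays, and at 8.08 at the brightest. The dimmest, with a control mean of 4.51, lay under 1 of the 17 Tag probe sets and its groups overlapped. With _s_at and _x_at probe sets left out NEK2 passed (limma adjusted p = 0.0404), as it did with its probe sets averaged (adjusted p = 0.00689).

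**Figure D2:**
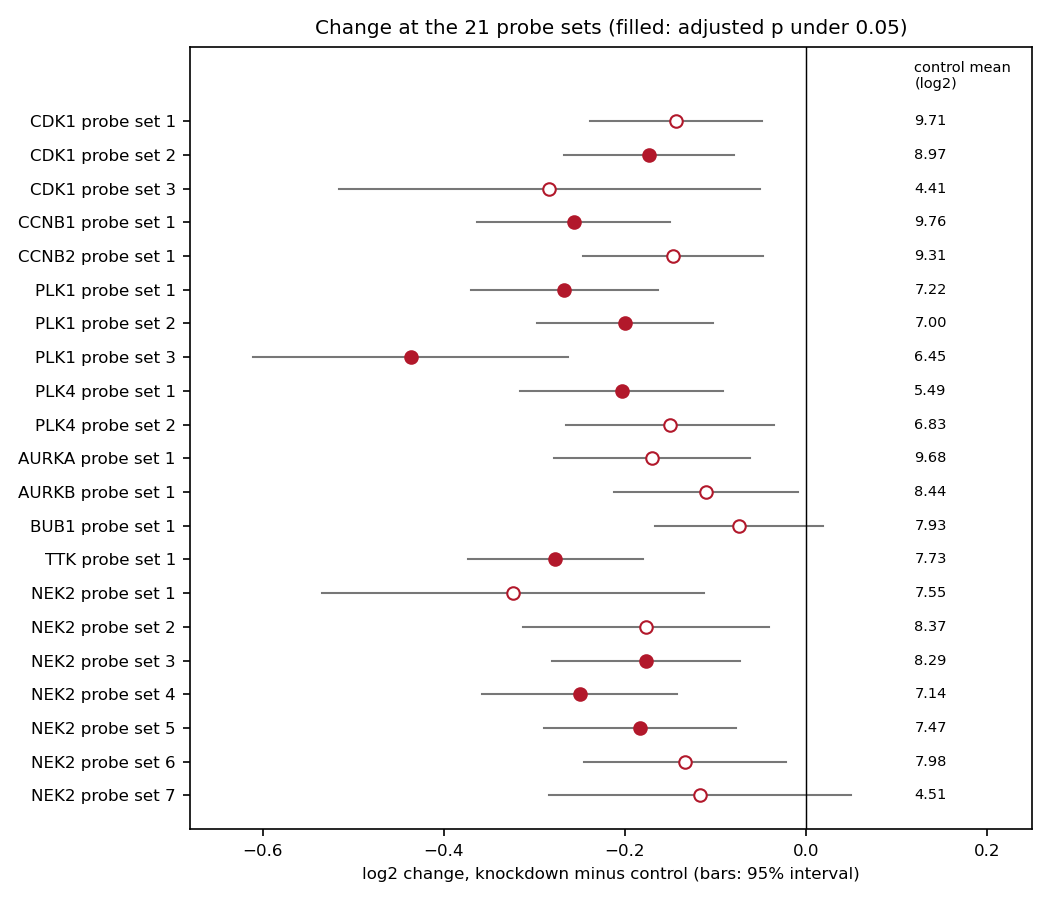
Log2 change, knockdown minus control (x axis), at the 21 probe sets, numbered within each gene by identifier. Points are estimates of the fit over 49293 probe sets, bars are 95% intervals, filled points passed at an adjusted p under 0.05, and the numbers at the right are control means. All 21 points lie left of 0, 10 are filled, and the bars of BUB1 and of the dimmest NEK2 probe set reach past 0.

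Over the 21 probe sets, 10 fell, 0 rose and 11 did not pass, against 9.85% of 49293 probe sets called in either direction and 5.25% called as fallen. Every knockdown array lay below every control array at 19 of the 21, against 16.8% of all probe sets, and the other 2 were the dimmest of CDK1 and of NEK2. Probe sets of 1 gene share their transcript and are not separate evidence. CDK1, CCNB2 and AURKA, called among genes, had adjusted p of 0.0674, 0.0724 and 0.0600 for the same probe sets in this wider fit. Among genes without _s_at and _x_at probe sets, CCNB2 and AURKA did not pass either (adjusted p = 0.0666 and 0.0541).

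Related members were compared by the difference of their signals within each array, over 3 pairs chosen with their values known. CCNB1 minus CCNB2 was 0.29, 0.42 and 0.31 on knockdown arrays, against 0.46, 0.44 and 0.45 on control arrays, so that CCNB1 changed by 0.11 ± 0.041 log2 units more in the negative direction (SE; exact permutation p = 0.1, the smallest 3 against 3 arrays allow, adjusted p = 0.15). PLK1 minus PLK4 was 0.24, 0.27 and 0.30 on knockdown arrays, against 0.34, 0.45 and 0.37 on control arrays, a difference in change of -0.12 ± 0.037 (SE; exact permutation p = 0.1, adjusted p = 0.15). For AURKA minus AURKB the groups overlapped (difference in change -0.06 ± 0.042, SE; exact permutation p = 0.3, adjusted p = 0.3). No pair reached the threshold, which this exact test cannot reach with 3 against 3 arrays, so the comparison does not show whether the members of a pair changed alike.

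The median difference of the 10 genes from their control means was -0.16, -0.17 and -0.15 on knockdown replicates 1, 2 and 3, and on each of these arrays all 10 genes were below the control mean. Among control arrays, replicate 1 had the highest signal of its group for 7 of the 10 genes. The count of called members was 3 or 4 in place of 6 when any 1 array was left out. It was 4 without knockdown replicate 3 and 3 without each of knockdown replicates 1 and 2 and control replicates 1, 2 and 3. CCNB1, PLK1 and TTK passed in all 6 of these fits. With the replicate number as a block, 3 genes passed. Over all genes, fewer also passed with any 1 array left out and with the block, and those totals are given in the last section. Knockdown replicate 1, the 1 array whose genotype field names LINC00525, was also set alone against the control arrays. All 10 changes were then negative (-0.31 to -0.07) and 0 genes passed, in a limma fit where the lone array is assumed to vary like the others and 256 of all genes passed.

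**Figure D3:**
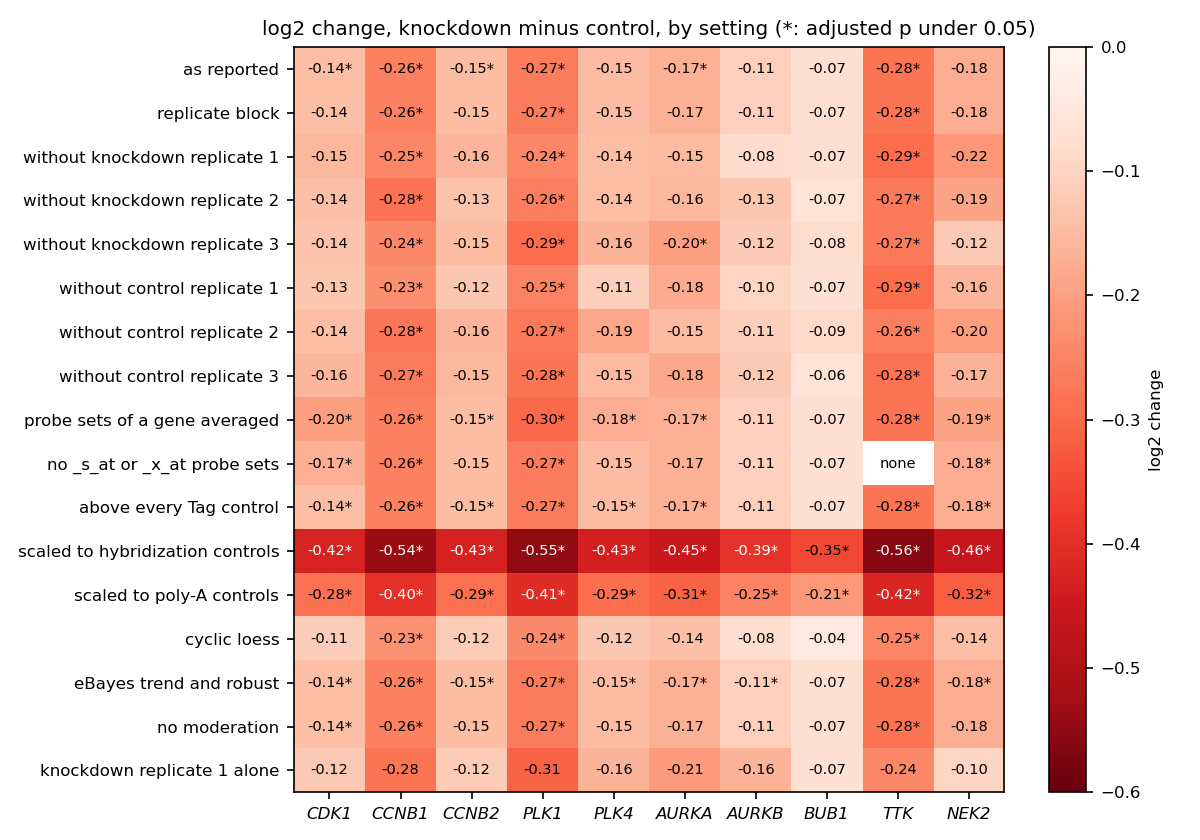
Log2 change, knockdown minus control, of each gene (columns) under each processing setting (rows), coloured from white (0) to dark red (-0.6), with an asterisk where the adjusted p was under 0.05. Every value is negative. CCNB1 and PLK1 carry an asterisk in each row but the last, as does TTK except where its _s_at probe set is left out (none). BUB1 carries one in the rows scaled to control probe sets, where all 10 do.

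Scaling changed the size of the 10 changes. Shifting arrays to a common level of control probe sets lowered the change of every gene by the same amount. These 10, negative before, could not change sign by it. Bacterial hybridization controls, added to every sample before hybridization, were at 9.50 ± 0.045 on knockdown arrays and 9.22 ± 0.11 on control arrays (SD, n = 3 each). Arrays shifted to a common level of these controls gave log2 changes of -0.56 to -0.35 for the 10 genes, all past the threshold, while the median of all genes moved to -0.29 and 15085 of 18132 genes were called as fallen. After cyclic loess, which moved the median gene to 0.002, the 10 changes were -0.25 to -0.04 and 3 genes passed (CCNB1, PLK1 and TTK).

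CDKN1A rose and LINC00525 fell on the same arrays. CDKN1A was at 10.00, 10.09 and 10.18 on knockdown arrays, against 9.56, 9.57 and 9.48 on control arrays, and rose by 0.55 ± 0.055 (SE; limma adjusted p = 0.000891). LINC00525 was at 3.67, 3.45 and 3.54 on knockdown arrays, against 3.86, 3.74 and 3.97 on control arrays. It fell by 0.30 ± 0.075 (SE; limma adjusted p = 0.0372), near background with 1 of the 17 Tag probe sets above its control mean. Its call was lost without knockdown replicate 2 or 3 or control replicate 1 or 3 (adjusted p of 0.0960 to 0.111). The cell type was checked on marker genes. All 9 A549 and epithelial markers were above every Tag probe set on control arrays, and of these KRT19 rose by 0.29 ± 0.040 and KRT8 fell by 0.15 ± 0.039 (SE; limma adjusted p = 0.00409 and 0.0474). Of 12 markers of other cell types, 5 were above every Tag probe set on control arrays. The monocyte marker CD14 was at 6.19 on knockdown and 6.25 on control arrays. CD3E (4.57 on knockdown and 4.64 on control arrays), PDGFRB (4.78 and 4.86), KDR (4.59 and 4.68) and PECAM1 (4.82 and 4.65) lay within 0.3 of the highest Tag control mean of 4.60. The other 7 had control means within or below the Tag range, among them the leukocyte marker PTPRC at 2.44 on knockdown and 2.32 on control arrays and the fibroblast collagen COL3A1 at 3.15 on knockdown and 3.09 on control arrays. None of these 12 passed the test.

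Genes listed under CDK1 and cyclin B control, not all of them direct regulators, moved in both directions. Of 18 measured, 2 fell, 3 rose and 13 did not pass, with a median log2 change of -0.04 (over all genes, 6.83% fell and 5.77% rose). The 2 falls are near the share of all genes. On leaving out 1 array, 1 or 2 were called as fallen and 3 as risen, and without variance moderation 0 were called as fallen. CDC25A, a phosphatase that activates cyclin-dependent kinases, fell by 0.33 ± 0.053 (SE; limma adjusted p = 0.00762) at a probe set with the suffix _s_at. Without _s_at and _x_at probe sets CDC25A did not pass (-0.22, adjusted p = 0.260). ENSA, an inhibitor of the phosphatase PP2A in mitosis, fell by 0.16 ± 0.039, a call lost on leaving out 5 of the 6 arrays in turn, with the replicate block (adjusted p = 0.0765) and with its probe sets averaged (-0.05, adjusted p = 0.436). Besides CDKN1A, GADD45A, a stress protein that can disrupt the CDK1 and cyclin B complex, rose by 0.89 ± 0.045 (SE; limma adjusted p = 2.84e-05), and CDK7, which phosphorylates the CDK1 activation loop, rose by 0.26 ± 0.043, though it did not pass when scaled to the hybridization controls (-0.02) or to the poly-A controls (0.12). The inhibitory kinases WEE1 and PKMYT1 (both at -0.09) and the mitotic phosphatases CDC25B (-0.02) and CDC25C (-0.07) did not pass.

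The machinery that destroys cyclin B and the checkpoint that restrains it held falls and no rises. Of 22 measured genes 8 fell, 0 rose and 14 did not pass (median -0.11), while over all genes 6.83% fell and 5.77% rose. On leaving out 1 array 3 or 4 of the 22 were called. FBXO5 (EMI1), an APC/C inhibitor, fell by 0.39 ± 0.043 (SE; limma adjusted p = 0.00155) at a probe set with the suffix _s_at. With _s_at and _x_at probe sets left out FBXO5 was not measured. MAD2L1, the checkpoint protein MAD2, fell by 0.31 ± 0.059, a call lost on leaving out 3 of the 6 arrays in turn, and by 0.18 with its probe sets averaged, and ANAPC4, an APC/C subunit, fell by 0.26 ± 0.037. The APC/C activators CDC20 (-0.06) and FZR1 (0.05) did not pass.

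Partner genes of the Aurora and polo-like kinases held falls and no rises, while over all genes 6.83% fell and 5.77% rose. Of 13 Aurora partners 5 fell, 0 rose and 8 did not pass (median -0.16). CDCA8 (borealin), a subunit of the AURKB complex, fell by 0.28 ± 0.046, BIRC5 (survivin) of the same complex by 0.19 ± 0.037, BORA, the AURKA cofactor that activates PLK1, by 0.27 ± 0.047, SGO1, the protector of centromeric cohesion, by 0.27 ± 0.048 and the AURKA substrate TACC3 by 0.15 ± 0.036 (SE). On leaving out 1 array in turn, TACC3 was lost 6 times, BIRC5 3 times (knockdown replicate 2, control replicates 2 and 3) and SGO1 once (control replicate 2, adjusted p = 0.0543). TACC3 and BIRC5 were also lost with the replicate block (adjusted p = 0.0826 and 0.0537), and TACC3 without _s_at and _x_at probe sets (adjusted p = 0.0501). INCENP, the scaffold of the AURKB complex, was at -0.08 and TPX2, the AURKA activator, at -0.16, and neither passed. On leaving out 1 array, 3 to 5 of these partners were called. Of 13 genes that act with PLK1 and PLK4 at centrosomes and the central spindle 7 fell, 0 rose and 6 did not pass (median -0.19), and 3 to 6 were called on leaving out 1 array. The PLK4 substrate STIL fell by 0.45 ± 0.041 (SE; limma adjusted p = 0.000646) at a probe set with the suffix _x_at. The centriole cartwheel protein SASS6 fell by 0.39 ± 0.086, a call lost on leaving out 4 of the 6 arrays in turn, and by 0.23 with its probe sets averaged, and CEP152, which recruits PLK4, fell by 0.27 ± 0.044. CCP110 (0.07) and CEP135 (0.01), other centriole proteins, did not pass.

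Among relatives of the members and other mitotic kinases, changes went both ways, while over all genes 6.83% fell and 5.77% rose. Of 15 measured kinases and relatives 3 fell, 4 rose and 8 did not pass, with a median of 0.02. The mitotic kinases PBK and MELK fell by 0.24 ± 0.036 and 0.15 ± 0.036, and the centrosome protein CDK5RAP2 by 0.16 ± 0.041 (SE). Only PBK of these 3 was still called on leaving out any 1 array. CDK5RAP2 and MELK were also lost with the replicate block (adjusted p = 0.101 and 0.0788) and without _s_at and _x_at probe sets (adjusted p = 0.303 and 0.0501), and CDK5RAP2 with its probe sets averaged (adjusted p = 0.0797). The stress-responsive polo-like kinases PLK2 and PLK3 rose by 0.22 ± 0.038 and 0.23 ± 0.040, and NEK7 and NEK6, which work under NEK9, rose by 0.31 ± 0.051 and 0.27 ± 0.058 (SE; limma adjusted p = 0.00947, 0.0102, 0.00886 and 0.0240), the NEK6 call being lost on leaving out 5 of the 6 arrays in turn. When scaled to the hybridization controls these 4 were at -0.06, -0.05, 0.03 and -0.01, with none past the threshold. When scaled to the poly-A controls they were at 0.08, 0.09, 0.17 and 0.13, and NEK7 passed (limma adjusted p = 0.0369) while the other 3 did not. NEK6 was also lost with its probe sets averaged (0.14, adjusted p = 0.0912). AURKC (0.06) and CCNB3 (-0.04), the germline-biased relatives, did not pass and had control means of 4.18 and 4.09, within the Tag range of 2.27 to 4.60.

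Of 12 measured transcription factors and DREAM subunits that control G2 and mitotic genes 3 fell, 0 rose and 9 did not pass (median -0.10), and 1 to 3 were called on leaving out 1 array. They were LIN9, a core subunit shared by DREAM and the activating MYB complex, which fell by 0.41 ± 0.059 (SE; limma adjusted p = 0.00507), the activator FOXM1, which fell by 0.26 ± 0.046, and NFYA of the CCAAT-binding factor, which fell by 0.24 ± 0.056. FOXM1 was lost without control replicate 2 (adjusted p = 0.0519), and NFYA was lost in 5 of these 6 fits, the exception being that without knockdown replicate 2. With their probe sets averaged LIN9 fell by 0.26 and NFYA by 0.16. MYBL2 (-0.10), the repressor E2F4 (-0.003) and the pocket proteins RBL1 (-0.02) and RBL2 (-0.03) did not pass. Of 13 phosphatase subunits that reverse mitotic phosphorylation 1 fell, 0 rose and 12 did not pass (median -0.01). Beside this list and that of transcription factors, 6.83% of all genes fell and 5.77% rose. The 1 phosphatase fall is near that share. It was the PP2A regulatory subunit PPP2R2D, which fell by 0.20 ± 0.038. That call was lost on leaving out 3 of the 6 arrays in turn.

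**Figure D4:**
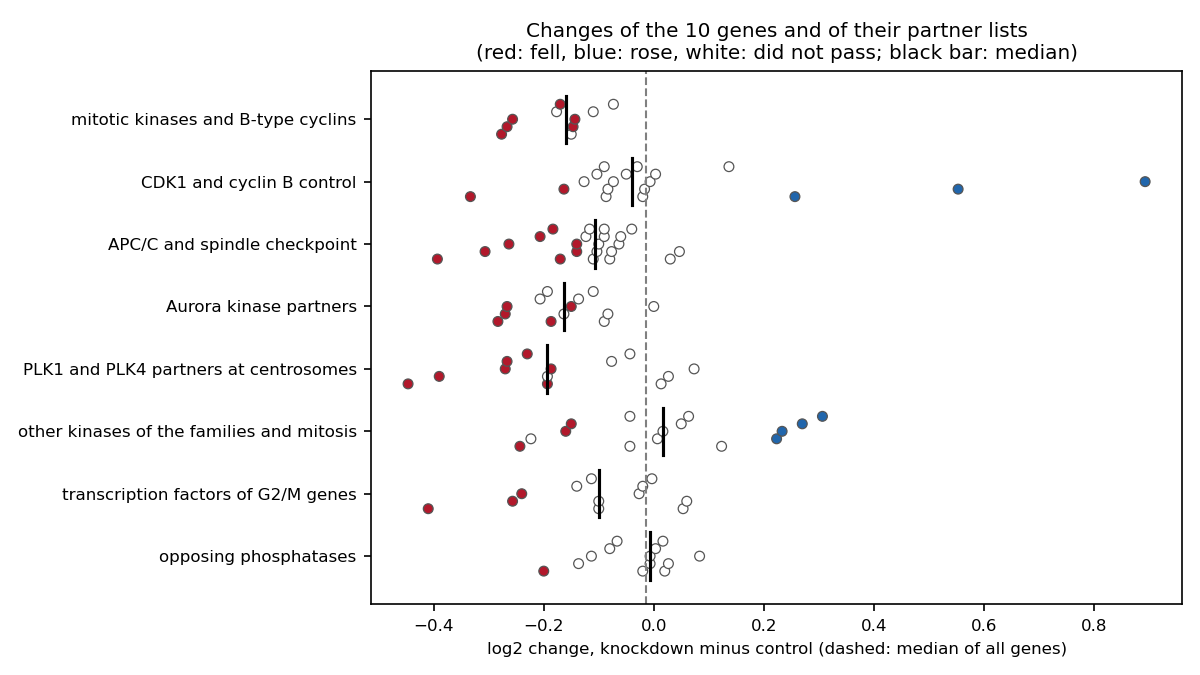
Log2 change, knockdown minus control (x axis), of the 10 genes (top row) and of each partner list, 1 point a gene, red where it fell, blue where it rose and white where it did not pass. Black bars are list medians, and the dashed line is the median of all genes. The 10 genes all lie left of the dashed line, and rises occur in the lists of CDK1 and cyclin B control and of other kinases.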

How the data were processed

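Total RNA (100 ng, biotin-labelled cRNA) of 6 A549 samples was hybridized to one-colour arrays, per the labels' protocols. The authors deposited log2 values, made by RMA per the submitters' processing notes, for 49372 probe sets with 2 decimals and array medians of 5.10 to 5.11. The software, its version and the annotation are not stated in the sources used here. The values were not normalized again; RMA removes changes shared by most genes and understates differences near background. The number of arrays limits the precision.

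Gene names came from the platform's annotation table: 44994 had 1 gene symbol, 1832 several and 2546 none, and symbols were updated by gene identifier to GRCh38.p14 for 44967. The probe set with the highest mean stood for each of 18132 genes. Groups were compared with limma 3.58.1 (lmFit, eBayes, 2-sided, no covariate) in R 4.3.3, adjusted by Benjamini-Hochberg over all genes, and separately over 49293 probe sets without the 79 control probe sets. On simulated arrays with 18132 genes, of which 200 changed, the fit called 26% of genes lowered by 0.2 log2 units and 82% of those lowered by 0.3, with 13 false calls of 167.

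Members and lists were chosen with earlier results of these data known. All members were named, and of each partner list the 3 largest falls and 3 largest rises that passed. BIRC5, TACC3 and PLK2, and genes named as not passing, lie outside that rule and were picked with their values known. PTTG1, CENPJ, PLK5 and NEK1 are not analysed here. Alternatives covered the probe set rule, dim probe sets, scaling, variance moderation, left-out arrays and the replicate block. The replicate numbers name no shared culture, so they were not treated as pairing, and the block was run as an alternative. Deviations from the group means of same-numbered arrays correlated at 0.093, 0.063 and -0.007 over all probe sets, which does not decide whether arrays were paired. Figures were drawn with matplotlib 3.10.9.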

Additional observations from a re-analysis of the deposited data

Results flagged for a closer look

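The spike-in control probe sets, which measure no gene of the cells and served above for scaling, were brighter on knockdown arrays than on control arrays. The 18 hybridization control probe sets were higher by 0.28 log2 units on knockdown arrays (9.52, 9.54 and 9.45) than on control arrays (9.10, 9.30 and 9.27). The 24 poly-A control probe sets were higher by 0.14 log2 units on knockdown arrays (5.88, 5.87 and 5.87) than on control arrays (5.76, 5.67 and 5.76). The 17 Tag probe sets differed by 0.009 (2.92 ± 0.041 on knockdown arrays and 2.91 ± 0.022 on control arrays, SD, n = 3 each). The part of these differences in the changes of the mitotic genes was not tested.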

How the results depend on the processing

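All 159 log2 changes of the 10 genes under the alternatives run were negative, which most settings fixed in advance. Fits that alter only the error keep the same change, and scaling to spike-in controls lowers every gene alike. With every knockdown array below every control array, leaving out arrays cannot turn these signs. Of the 159, 110 kept their side of the threshold, 33 lost the call and 16 gained it. The 110 include genes that stayed uncalled (PLK4 11, AURKB 13, BUB1 14 and NEK2 10). Most lost calls were of CDK1 (9 of 16 settings), CCNB2 (11 of 16) and AURKA (10 of 16). The count of called genes, 6 as reported, was 3 to 4 with 1 array left out, 3 with the replicate number as a block, 3 after cyclic loess, 10 when scaled to the hybridization controls, 10 when scaled to the poly-A controls and 0 with knockdown replicate 1 alone, an alternative chosen after seeing the data. The count of called probe sets, 10 as reported, was 4 to 6 with 1 array left out, 5 with the replicate block, 5 without variance moderation, 17 with eBayes trend and robust and 21 when scaled to either set of spike-in controls. The shares of all 49293 probe sets called under these settings are not given here, so these counts are no result about the members. Scaling to the hybridization controls called 15085 of 18132 genes as fallen, so calls there are not particular to the members. The block moved CDK1, CCNB2 and AURKA across the threshold and no other of the 10 genes. Over all genes, 2285 passed as reported, 1564 with the block, 1104 to 1575 with 1 array left out, 15317 scaled to the hybridization controls, 8894 scaled to the poly-A controls, 3502 with trend and robust and 1314 without moderation. The split of falls against rises moved with scaling: 1239 of 2285 calls were falls as reported, 907 of 2201 after cyclic loess, 15085 of 15317 scaled to the hybridization controls and 8397 of 8894 scaled to the poly-A controls. Among the named partners, 4 rises turned negative when scaled to the hybridization controls: CDK7 (-0.025), NEK6 (-0.011), PLK2 (-0.058) and PLK3 (-0.048). The causes were not tested. Fits with 1 array left out or with the block have fewer degrees of freedom, and the part of this in the lower counts was not tested. On simulated arrays, 26% of genes lowered by 0.2 log2 units were called. Only 200 genes changed there, and 167 calls were made against 2285 in the data. The adjusted threshold is easier to pass with more calls, so the 26% does not carry over to these data. In the data, changes of -0.18 (NEK2) and -0.15 (PLK4) did not pass, while -0.15 (CCNB2) and -0.14 (CDK1) did.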
